A study of Gallus gallus with 9 samples.

Results

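The genes described here encode the secreted Wnt proteins, their receptors and the proteins that modulate or carry their signal, measured in cultured chicken preadipocytes. They are the genes whose single symbol in the array's annotation starts with WNT, FZD, SFRP or DKK, together with LRP5, LRP6, CTNNB1, AXIN1, AXIN2, LEF1, TCF7L1 and TCF7L2. There were 43 of them, represented by 86 probe sets, among 13008 named chicken genes. TCF7 was on the same list of names and no chicken probe set carried it as its only symbol. Of the 43 genes, 21 had 1 probe set and 22 had several, up to 6, and the probe set with the highest mean over the 9 arrays stood for its gene.

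Preadipocytes are the precursors of fat cells, and these came from the abdominal fat of laying hens. All 3 groups were grown in medium with fetal bovine serum. One group received an adipogenic cocktail, which the labels call DMIOA and do not expand, together with 10 uM retinoic acid once the cells were confluent, a second received DMIOA alone, and the third was left untreated as the control. Each group had 3 biological replicates, numbered 1 to 3, and the labels do not say which hen or culture each came from, so the tests rest on the spread between samples whose separate origin is not stated. Retinoic acid is a vitamin A derivative that acts through nuclear receptors. The cells' RNA was hybridised to a 1-colour Affymetrix chicken array, and all levels below are log2 GCRMA values.

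Wnt proteins are secreted ligands that bind Frizzled receptors on the cell surface, in the beta-catenin branch together with the co-receptors LRP5 and LRP6. Without a signal, a complex built on axin marks beta-catenin, the product of CTNNB1, for destruction; with a signal, beta-catenin accumulates and works with TCF and LEF factors on target genes. Secreted frizzled-related proteins bind Wnt proteins outside the cell, and several Dickkopf proteins block the LRP co-receptors. In mouse preadipocytes the beta-catenin branch is known for holding back differentiation into fat cells.

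Replicate number separated the arrays along with treatment. Replicates 1 and 2 of a group correlated across probe sets at r = 0.963 to 0.997, the closest being those with retinoic acid, while replicate 3 correlated with the others of its group at 0.912 to 0.931. Macrophage and leukocyte markers stood higher in replicate 3. Of the 12 such genes on the array, 9 to 10 had a log2 value of at least 5 in replicate 3 of each group and 0 to 2 did in replicates 1 and 2, and their summed level was 12.05 to 13.35 in replicate 3 and 6.68 to 7.24 in the other replicates, on the log2 scale. In replicate 3 this level was 12.05 with DMIOA plus retinoic acid, 12.61 with DMIOA and 13.35 in control. Its genes differed in this. C1QB had 7.43, 10.09 and 10.93 there in that order of groups, and LAPTM5 had 10.14, 10.15 and 10.14. Of 11 preadipocyte and fibroblast markers, 9 to 10 reached 5 on every array, with a summed level of 16.24 to 16.57, and PDGFRA lay below 5 on all of them. TCF21 on that list stood at 11.16 to 11.76 with DMIOA plus retinoic acid, 3.21 to 4.56 with DMIOA and 3.60 to 4.16 in control. LUM and PDGFRB on it were lower with DMIOA plus retinoic acid than in control. In the same order of groups, LUM had 11.21 to 11.61, 10.88 to 12.62 and 12.60 to 13.28. PDGFRB had 7.43 to 8.16, 8.23 to 8.82 and 8.51 to 9.07. Other marker lists moved too, in single genes. The summed level of 12 adipocyte markers was 11.22 to 13.21 with DMIOA plus retinoic acid, 12.58 to 13.83 with DMIOA and 11.20 to 12.38 in control. Its genes went both ways. KLF15 stood at 5.71 to 6.48 with DMIOA plus retinoic acid, 8.16 to 9.85 with DMIOA and 7.92 to 9.33 in control. In the same order, LPL had 3.91 to 5.99, 4.70 to 7.50 and 6.63 to 8.18. CIDEC had 6.50 to 7.28, 6.20 to 9.75 and 3.59 to 4.09. FABP4 had 6.41, 6.26 and 12.28 with DMIOA plus retinoic acid, 10.61 to 12.96 with DMIOA and 9.57 to 10.39 in control. PPARG had 6.91 to 8.22 with DMIOA plus retinoic acid, 8.05 to 9.63 with DMIOA and 7.11 to 10.41 in control. In that order PLIN2 had 10.80 to 11.98, 11.43 to 12.08 and 9.74 to 10.81. The remaining adipocyte genes, ADIPOQ, PLIN1, CEBPA, SCD, DGAT2 and LPIN1, lay below 5 on all arrays. The summed level of 9 endothelial markers was 9.55 to 11.06 with DMIOA plus retinoic acid, 10.32 to 11.53 with DMIOA and 10.56 to 11.71 in control. CDH5 stood at 10.82 to 10.93 in replicate 3 and 7.82 to 8.98 in the others, and PECAM1 was also highest in replicate 3 of each group. PECAM1 had 3.83 to 5.31 with DMIOA plus retinoic acid, 4.99 to 6.06 with DMIOA and 6.82 to 7.42 in control. ERG was not highest in replicate 3. It had 8.02 in replicate 3 with DMIOA plus retinoic acid and 8.87 and 8.92 in replicates 1 and 2. With DMIOA and in control, its replicate 3 lay between the other replicates, in ranges of 9.68 to 10.74 and 10.16 to 10.37. PECAM1 and ERG were thus lower with DMIOA plus retinoic acid than in control, whereas the CDH5 ranges overlapped. KDR, TIE1, TEK and VWF lay below 5 on all arrays. Of 6 smooth muscle and pericyte markers, 3 reached 5 with DMIOA plus retinoic acid and 4 with DMIOA and in control. CSPG4 stood at 2.82 to 3.25 with DMIOA plus retinoic acid, 5.59 to 6.66 with DMIOA and 7.29 to 7.33 in control. ACTA2 and TAGLN were also lower with DMIOA plus retinoic acid than in control. MYH11 was not, at 6.63 to 8.88 with DMIOA plus retinoic acid, 6.81 to 9.60 with DMIOA and 6.28 to 7.12 in control. Their part in the Wnt results was not tested. In such bulk samples, fewer cells of a type and less RNA per cell cannot be told apart. CYP26A1, the retinoic acid hydroxylase gene that retinoic acid induces, stood at 12.23, 12.37 and 11.30 with DMIOA plus retinoic acid, at 1.88, 2.04 and 1.87 with DMIOA and at 1.80, 1.88 and 2.03 in control. RARB, a retinoic acid receptor gene, stood at 11.14, 11.14 and 10.42 with DMIOA plus retinoic acid, at 10.09, 9.40 and 7.79 with DMIOA and at 9.82, 9.90 and 7.74 in control.

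Most Wnt ligand genes gave low values, and most Frizzled genes did not. A log2 value of 5 served as the level below which a gene was marked as low, and a gene was tested where at least 3 arrays reached it. By this measure 17 of the 43 genes were tested, 24 lay below 5 on all 9 arrays (none above 4.05) and 2, WNT5A and LEF1, reached 5 on 2 arrays and 1 array. A low value does not show that a gene was silent, since the scanner's signal over background was not used here.

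Among the 18 Wnt ligand genes, WNT9A was the only one tested, and 16 stayed below 5 on every array with values no higher than 3.63. Those 16 were WNT1, WNT2, WNT2B, WNT3, WNT3A, WNT4, WNT5B, WNT6, WNT7A, WNT7B, WNT8A, WNT8B, WNT10A, WNT11, WNT11B and WNT16. Of the 10 Frizzled receptor genes, 8 were tested, and FZD5 and FZD10 stayed at or below 2.72. The co-receptor gene LRP5 was tested, while LRP6 ran between 1.79 and 2.40. Of the 7 secreted modulator genes, DKK3, SFRP2 and SFRP4 were tested, and SFRP1, SFRP5, DKK2 and DKK4 stayed at or below 2.70. Inside the cell, CTNNB1, AXIN1, AXIN2 and TCF7L1 were tested, and TCF7L2 ran between 3.09 and 4.05. A low value of 1 probe set does not set LRP6 or TCF7L2 below another gene, because probe sets differ in how brightly they report their transcript.

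**Figure D1:**
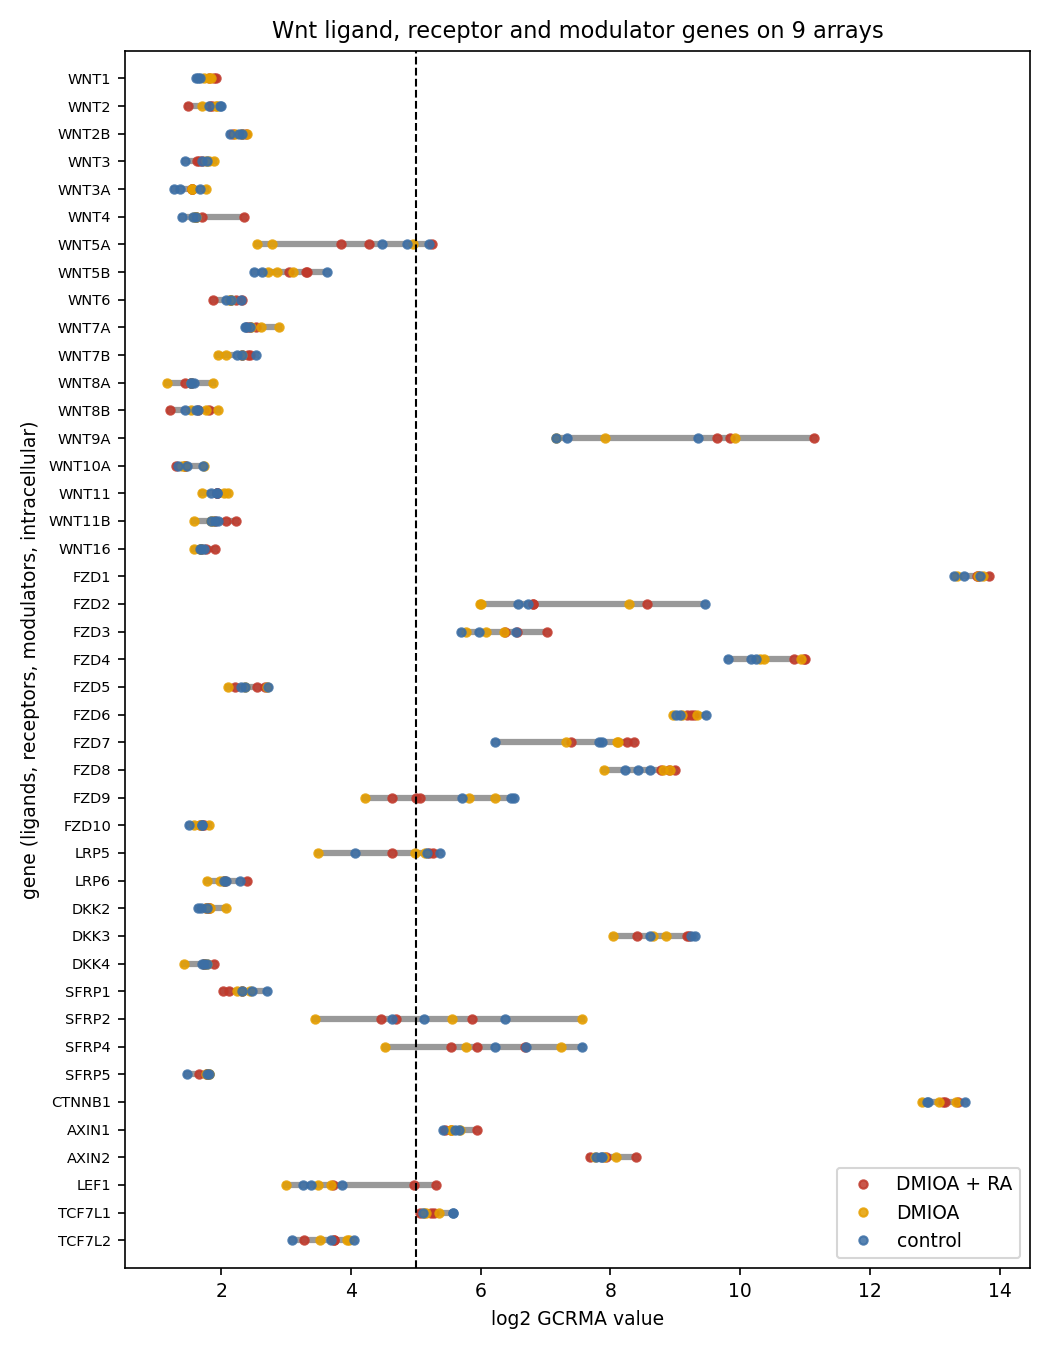
Log2 GCRMA value (horizontal axis) of the 43 Wnt genes (vertical axis) on 9 arrays, with DMIOA plus retinoic acid in red, DMIOA in orange and control in blue, a grey bar for the range of the 9 values and a dashed line at 5. All values of 16 of the 18 WNT genes lie left of the line, while FZD1, FZD2, FZD3, FZD4, FZD6, FZD7 and FZD8 lie right of it on all arrays.

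WNT9A encodes a secreted ligand known in the chick limb for its part in joint formation. WNT9A (gene ID 395829) had log2 values of 9.65, 9.85 and 11.14 in replicates 1, 2 and 3 with DMIOA plus retinoic acid, 7.16, 7.91 and 9.92 with DMIOA and 7.33, 7.16 and 9.35 in control. Replicate 3 was the highest array in each group, and the array of the same number with retinoic acid stood above both others. All 3 arrays with retinoic acid lay above the control arrays, whereas DMIOA replicate 3 lay above replicates 1 and 2 with retinoic acid. The difference between DMIOA plus retinoic acid and control was 2.26 (95% interval 0.32 to 4.21), a 4.80-fold difference of means, and it was not called in the fit without a block (limma, Benjamini-Hochberg adjusted p = 0.116). With the replicate number as a block, which compares arrays of the same number, WNT9A rose (adjusted p = 0.00275), and this call held when each of the 9 arrays was left out in turn (highest adjusted p = 0.0185). Against DMIOA alone, WNT9A was 1.88 higher with retinoic acid (95% interval -0.06 to 3.83; adjusted p = 0.323, blocked 0.00932). That blocked call was lost without retinoic acid replicate 1 or replicate 2 (highest adjusted p = 0.0537). DMIOA and control differed by 0.38 (95% interval -1.57 to 2.32; adjusted p = 0.938).

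WNT5A, a ligand known mainly for signalling that does not use beta-catenin, was not tested because only 2 arrays reached 5. It had 3.85, 4.28 and 5.25 with DMIOA plus retinoic acid, 2.55, 2.78 and 4.96 with DMIOA and 4.87, 4.48 and 5.20 in control. The lowest 2 of the 9 values were DMIOA replicates 1 and 2, and the 3 groups lay close together in replicate 3. Fitted with all chicken probe sets and no filter, WNT5A had adjusted p-values of 0.614 for DMIOA against control, 0.666 for retinoic acid with DMIOA against DMIOA and 0.830 for retinoic acid with DMIOA against control. A second WNT5A probe set had 4.16, 4.15 and 6.02 with DMIOA plus retinoic acid, 2.00, 2.90 and 4.45 with DMIOA and 4.76, 4.26 and 5.39 in control, with the lowest values again in DMIOA replicates 1 and 2.

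In the fit of all 9 arrays with no block or array weights, FZD4 was the only one of the 17 tested genes called. FZD4 encodes a Frizzled receptor known in mammals as the receptor for Norrin in retinal vessels. FZD4 (gene ID 373887) had log2 values of 10.99, 10.83 and 11.00 with DMIOA plus retinoic acid, 10.31, 10.94 and 10.36 with DMIOA and 9.81, 10.16 and 10.25 in control. The retinoic acid arrays all lay above the control arrays, and so did those with DMIOA, while DMIOA replicate 2 reached into the range of the retinoic acid arrays. Means were 10.94 ± 0.10 with DMIOA plus retinoic acid, 10.54 ± 0.35 with DMIOA and 10.07 ± 0.23 in control (SD, n = 3 each). FZD4 rose by 0.87 with DMIOA plus retinoic acid against control (95% interval 0.41 to 1.32; 1.82-fold; limma, adjusted p = 0.0270, blocked 0.0177). A second FZD4 probe set gave a difference of 0.87 (adjusted p = 0.0384). The first probe set's call was lost without control replicate 1 or 2 or any 1 of the 3 retinoic acid replicates (highest adjusted p = 0.102), and with retinoic acid replicates 1 and 2 averaged as 1 sample (adjusted p = 0.0866). The blocked call was lost without control replicate 1 or 2 or retinoic acid replicate 1 (highest adjusted p = 0.0840). FZD4 was not called between DMIOA plus retinoic acid and DMIOA (difference 0.41, 95% interval -0.05 to 0.86; adjusted p = 0.366) or between DMIOA and control (0.46, 0.01 to 0.92; adjusted p = 0.427).

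FZD3 encodes a receptor known in mice for planar cell polarity and axon growth. FZD3 (gene ID 395572) had log2 values of 6.38, 6.56 and 7.03 with DMIOA plus retinoic acid, 5.77, 6.08 and 6.36 with DMIOA and 5.70, 5.98 and 6.54 in control. The retinoic acid array was the highest of its replicate number in all 3, and its lead over the same-numbered array was 0.61, 0.48 and 0.68 against DMIOA and 0.68, 0.57 and 0.50 against control. The mean difference was 0.59 against DMIOA (95% interval -0.03 to 1.21; adjusted p = 0.334, blocked 0.0174) and 0.58 against control (-0.04 to 1.20; adjusted p = 0.188, blocked 0.00943), so of these fits only the blocked one called FZD3. Without replicate 3, FZD3 passed against control without the block (limma, adjusted p = 0.0482). Of the 9 arrays, leaving out DMIOA replicate 1 or 3 or retinoic acid replicate 1 or 2 ended the blocked call against DMIOA. Leaving out control replicate 1 or 2 or retinoic acid replicate 1 ended the one against control (highest adjusted p = 0.0956 and 0.0563). A second FZD3 probe set lay below 5 on all arrays. Its values were 3.68, 3.68 and 4.54 with DMIOA plus retinoic acid, 3.66, 3.62 and 4.27 with DMIOA and 3.22, 3.44 and 3.88 in control.

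FZD9 was the 1 receptor gene whose call was downward. It encodes a Frizzled receptor known in mice for a part in bone formation. FZD9 (gene ID 373886) had 5.00, 5.06 and 4.64 with DMIOA plus retinoic acid, 6.22, 5.82 and 4.22 with DMIOA and 6.51, 6.47 and 5.72 in control. All 3 retinoic acid arrays lay below the control arrays, whereas the DMIOA arrays ran on both sides of the retinoic acid arrays. FZD9 was at least 2.31-fold lower with DMIOA plus retinoic acid than in control, with 5 in place of each value below it, and the fitted difference was -1.33 (95% interval -2.46 to -0.20; adjusted p = 0.113, blocked 0.0205). That blocked call was lost without control replicate 1, 2 or 3 or retinoic acid replicate 1 or 2 (highest adjusted p = 0.0862). Against DMIOA the difference was -1.22 in replicate 1, -0.75 in replicate 2 and 0.42 in replicate 3 (fitted -0.52, 95% interval -1.65 to 0.61; adjusted p = 0.692, blocked 0.317). DMIOA against control gave -0.81 (95% interval -1.94 to 0.32; adjusted p = 0.585, blocked 0.195).

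FZD7 encodes a receptor known for roles in early embryos and stem cells. FZD7 (gene ID 374060) had 8.36, 8.25 and 7.39 with DMIOA plus retinoic acid, 8.10, 8.11 and 7.32 with DMIOA and 7.82, 7.87 and 6.22 in control. Replicate 3 was the lowest array in each group, and the groups overlapped. At equal replicate number, FZD7 was 0.54, 0.38 and 1.17 higher with DMIOA plus retinoic acid than in control (fitted 0.70, 95% interval -0.43 to 1.82; adjusted p = 0.381, blocked 0.0379). Leaving out control replicate 1 or 2, retinoic acid replicate 1, 2 or 3, or DMIOA replicate 1 ended the blocked call (highest adjusted p = 0.116). Without replicate 3, FZD7 passed without the block (adjusted p = 0.0257) and not with it (adjusted p = 0.0557). FZD7 was not called in the other 2 comparisons with or without the block.

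FZD2, a receptor known to take up WNT5A signals in mammals, varied more between replicates than between groups. FZD2 (gene ID 374061) had 6.80, 6.80 and 8.56 with DMIOA plus retinoic acid, 5.99, 6.01 and 8.29 with DMIOA and 6.57, 6.73 and 9.46 in control. Replicate 3 stood 1.77, 2.29 and 2.81 above the mean of replicates 1 and 2 in those groups. FZD2 was not called with all arrays (fitted 0.63 for DMIOA plus retinoic acid against DMIOA, 95% interval -1.59 to 2.84; adjusted p = 0.833, blocked 0.121). In replicates 1 and 2 alone, FZD2 was 0.80 higher with retinoic acid than with DMIOA (limma, adjusted p = 0.0134), in a fit that called 12.3% of all probe sets. The retinoic acid arrays in that fit had the same FZD2 value, and their separate origin is not stated. In these replicates FZD2 differed from control by 0.15 with DMIOA plus retinoic acid (adjusted p = 0.335) and by -0.65 with DMIOA (adjusted p = 0.0594).

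The other 3 tested Frizzled genes, FZD1, FZD6 and FZD8, ran between 13.29 and 13.83, 8.96 and 9.48, and 7.90 and 8.99 over the 9 arrays. FZD1, FZD6 and FZD8 were not called in any of the 3 comparisons with or without the block. FZD8 was 0.47 higher with DMIOA plus retinoic acid than in control (95% interval -0.14 to 1.08; adjusted p = 0.271, blocked 0.0969), with groups that did not overlap. Without replicate 3, FZD8 passed the test in that comparison (adjusted p = 0.0477), and with the block added it did not (adjusted p = 0.0610). For FZD6 the 95% intervals ran from -0.42 to 0.31 for DMIOA against control and from -0.32 to 0.42 for DMIOA plus retinoic acid against control.

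LRP5 lay close to the level of 5 on most arrays. It had 5.26, 5.20 and 4.64 with DMIOA plus retinoic acid, 5.15, 4.99 and 3.50 with DMIOA and 5.37, 5.18 and 4.06 in control. Replicate 3 was the lowest array in each group, and the groups overlapped. No comparison of LRP5 was called with or without the block, and the lowest blocked adjusted p was 0.188. The values per array of LRP5, SFRP2 and SFRP4 were chosen for printing after they had been seen.

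**Figure D2:**
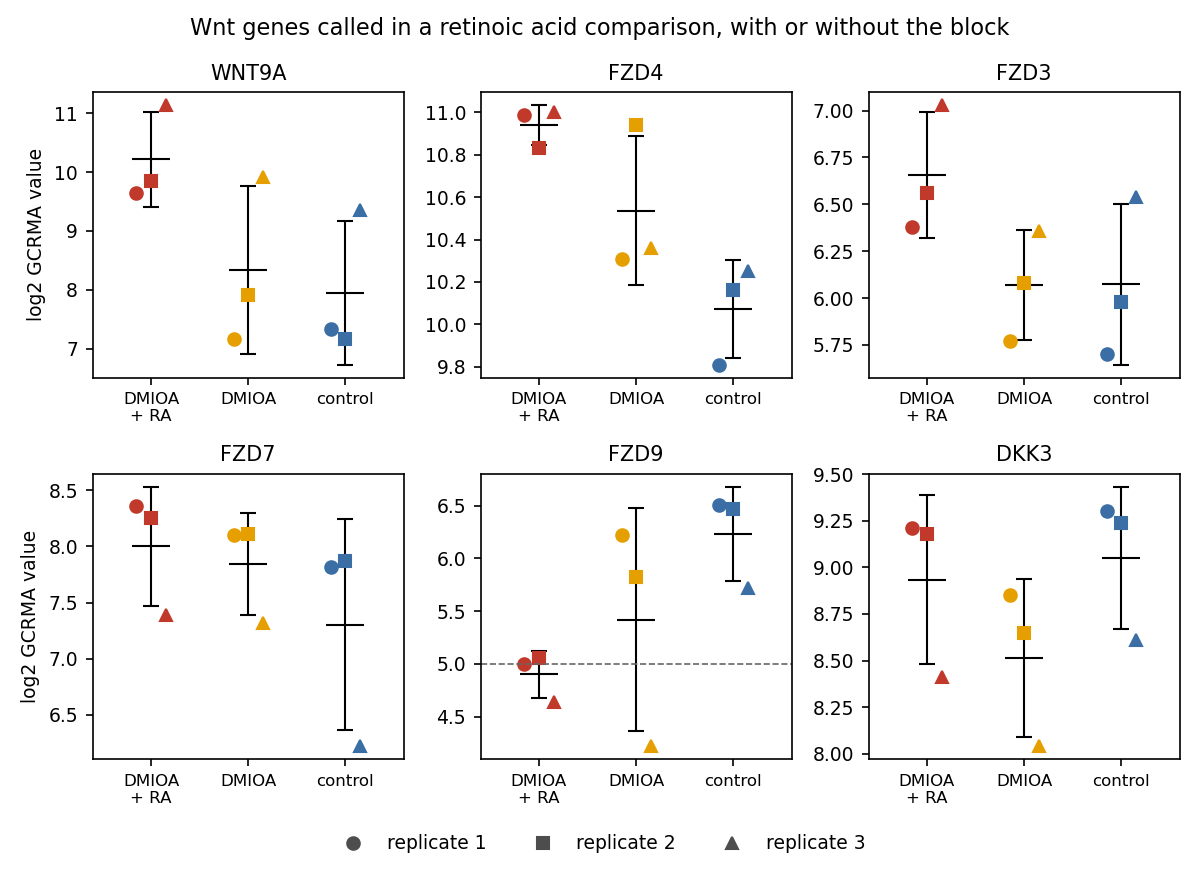
Log2 GCRMA value (vertical axis, a separate scale in each panel) of the 6 Wnt genes called in a retinoic acid comparison with or without the replicate block, by group. Points are single arrays with a symbol for the replicate number, bars the mean and SD of 3 arrays, and the dashed line a value of 5. WNT9A and FZD3 are highest with retinoic acid within each replicate number, FZD4 is highest there in replicates 1 and 3, and the retinoic acid arrays of FZD9 lie below all control arrays.

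DKK3 was the only tested Dickkopf gene. It encodes a divergent Dickkopf protein, which unlike DKK1 is not known as a blocker of the LRP co-receptors. DKK3 (gene ID 396023) had 9.21, 9.18 and 8.41 with DMIOA plus retinoic acid, 8.85, 8.65 and 8.04 with DMIOA and 9.30, 9.24 and 8.61 in control. Within each replicate number the DMIOA array was the lowest, by 0.37, 0.53 and 0.37 under the retinoic acid array. DKK3 was called higher with DMIOA plus retinoic acid than with DMIOA only with the block (difference 0.42, 95% interval -0.30 to 1.15; adjusted p = 0.587, blocked 0.0360). Leaving out any 1 of 8 arrays ended that blocked call, the exception being control replicate 3 (highest adjusted p = 0.173). DMIOA against control gave -0.54 (95% interval -1.26 to 0.18; adjusted p = 0.561, blocked 0.0536). DMIOA plus retinoic acid against control gave -0.12 (95% interval -0.84 to 0.60; adjusted p = 0.840).

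SFRP2 and SFRP4, secreted frizzled-related proteins, scattered widely inside the groups. SFRP2 had 4.70, 4.46 and 5.86 with DMIOA plus retinoic acid, 3.44, 7.56 and 5.56 with DMIOA and 4.64, 5.13 and 6.37 in control. DMIOA replicates 1 and 2 held the lowest and the highest of the 9 values. SFRP4 had 5.94, 5.54 and 6.69 with DMIOA plus retinoic acid, 5.77, 4.53 and 7.24 with DMIOA and 6.22, 6.70 and 7.56 in control. DMIOA replicate 2 was the lowest array for SFRP4 and the highest for SFRP2. Neither gene was called with or without the block in any comparison, and the 95% interval for DMIOA against control ran from -2.11 to 2.40 for SFRP2 and from -2.53 to 0.58 for SFRP4.

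**Figure D3:**
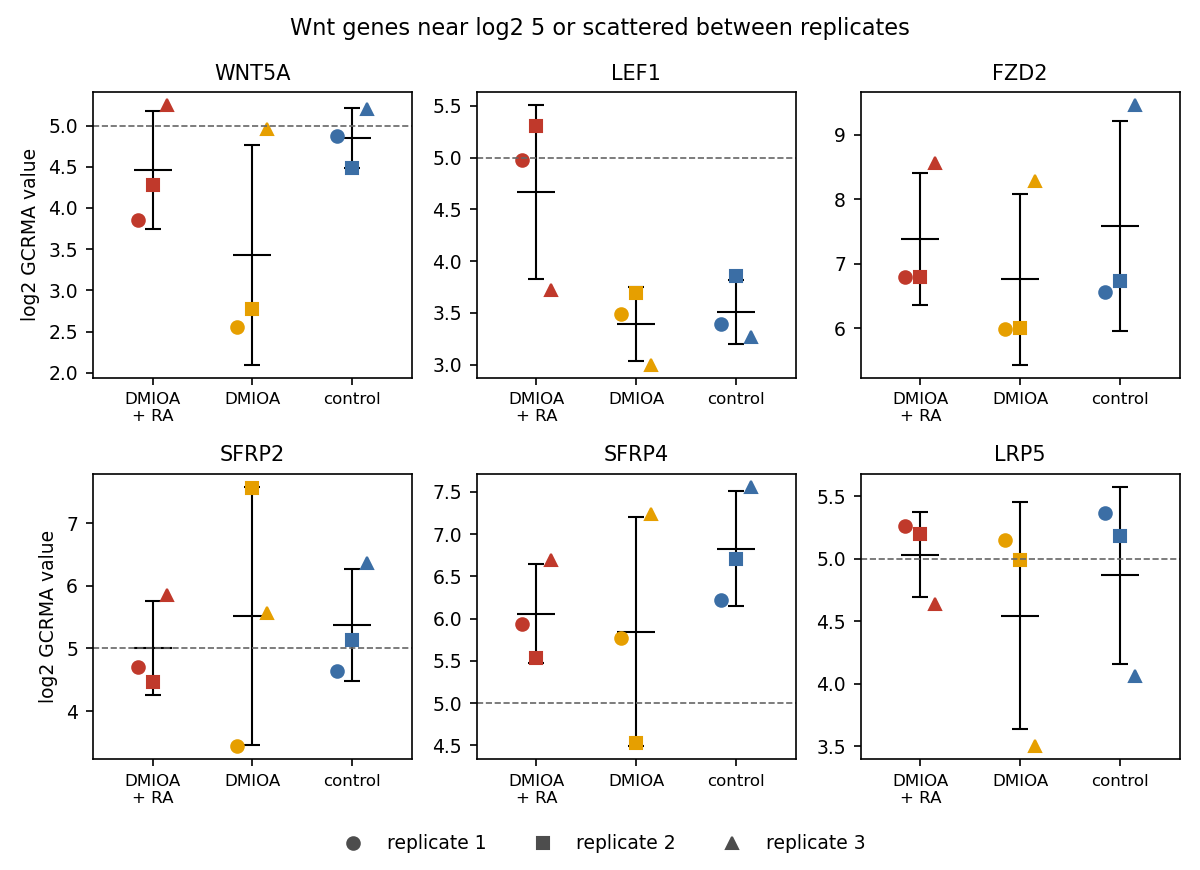
Log2 GCRMA value (vertical axis, a separate scale in each panel) of 6 Wnt genes that lay near a value of 5 or varied widely between replicates, by group. Points are single arrays with a symbol for the replicate number, bars the mean and SD of 3 arrays, and the dashed line a value of 5. FZD2 is highest in replicate 3 of each group, SFRP2 runs from 3.44 to 7.56 with DMIOA, and 1 LEF1 array, retinoic acid replicate 2, lies above the line.

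CTNNB1, AXIN1, AXIN2 and TCF7L1 were not called in any comparison, with or without the block. CTNNB1, the beta-catenin gene, had 13.16, 13.13 and 13.35 with DMIOA plus retinoic acid, 12.80, 13.07 and 13.33 with DMIOA and 12.88, 12.90 and 13.47 in control. The 3 groups overlapped. Its 95% interval was -0.34 to 0.60 for DMIOA plus retinoic acid against control, -0.32 to 0.61 for DMIOA plus retinoic acid against DMIOA and -0.48 to 0.45 for DMIOA against control. AXIN2 encodes a scaffold of the destruction complex and is itself a widely used target of the beta-catenin branch. It had 7.94, 7.69 and 8.40 with DMIOA plus retinoic acid, 7.90, 7.76 and 8.09 with DMIOA and 7.86, 7.87 and 7.78 in control. Its 95% interval was -0.26 to 0.61 for DMIOA plus retinoic acid against control, -0.34 to 0.53 for DMIOA plus retinoic acid against DMIOA and -0.35 to 0.52 for DMIOA against control. All of these intervals for CTNNB1 and AXIN2 lay within 0.61 of no change on the log2 scale. AXIN1, the related scaffold, ran between 5.42 and 5.94, and TCF7L1, a TCF factor known mainly as a repressor, ran between 5.07 and 5.57.

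LEF1, a factor that works with beta-catenin on target genes, had 4.98, 5.31 and 3.72 with DMIOA plus retinoic acid, 3.49, 3.69 and 3.00 with DMIOA and 3.39, 3.86 and 3.27 in control. The retinoic acid arrays lay above the DMIOA arrays, and retinoic acid replicate 3 lay below control replicate 2. LEF1 was not tested, since 1 array reached 5. Fitted with all chicken probe sets, its adjusted p was 0.260 for DMIOA plus retinoic acid against DMIOA, 0.168 against control and 0.974 for DMIOA against control. A second LEF1 probe set had 2.56, 2.66 and 1.70 with DMIOA plus retinoic acid, 1.95, 1.89 and 1.97 with DMIOA and 1.95, 1.93 and 1.93 in control, with retinoic acid replicates 1 and 2 the highest arrays and retinoic acid replicate 3 the lowest.

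Counted together, 1 of the 17 tested genes was called with DMIOA plus retinoic acid against control, the rise of FZD4. Over all 12329 tested probe sets, 6.74% were called higher and 6.42% lower in that comparison, and 1 of 17 is a share near that background. Unadjusted p-values under 0.05 were found for 3 of the 17, against 30.4% of all probe sets, and with the block for 6, against 43.7%. With the block, 5 of the 17 were called, WNT9A, FZD3, FZD4 and FZD7 higher and FZD9 lower, where 15.8% of all probe sets were higher and 13% lower, again a share near the background. That count ran from 1 to 6 when each array was left out in turn, and WNT9A was called in all 9 of those fits. The same fits called 1343 to 3898 of the 12329 probe sets. Without replicate 3, the 6 called genes were these 5 and FZD8, against 29.4% of all probe sets in either direction. With the block and without replicate 3, 4 were called, WNT9A, FZD3, FZD4 and FZD9, against 24% of all probe sets. With retinoic acid replicates 1 and 2 averaged as 1 sample, limma called 0 of the 17 in each of the 3 comparisons. That fit called 546 of the 12329 probe sets in this comparison, 153 against DMIOA and 0 for DMIOA against control. The median difference of the 17 genes was 0.13 and that of all tested probe sets 0.08.

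With DMIOA plus retinoic acid against DMIOA, 0 of the 17 genes were called by limma without a block where 2.12% of all probe sets were called higher and 1.77% lower. An unadjusted p under 0.05 was found for 0 of the 17, against 16.2% of all probe sets. With the block, WNT9A, FZD3 and DKK3 were called higher and 0 lower, where 5.56% of all probe sets were higher and 5.27% lower. That count ran from 0 to 3 when each array was left out in turn, in fits that called 371 to 1560 of the 12329 probe sets. Unadjusted p-values under 0.05 numbered 4 with the block, against 27.1% of all probe sets. Without replicate 3, 3 genes were called, WNT9A and FZD2 higher and FZD9 lower, against 12.3% of all probe sets in either direction. The same 3 were called with the block and without replicate 3, against 8.98% of all probe sets. The median difference of the 17 genes was 0.16 and that of all tested probe sets 0.04.

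With DMIOA against control, 0 of the 17 genes were called by limma without a block, with it or without replicate 3. Unadjusted p-values under 0.05 were found for 1 of them without the block, FZD4, against 11.6% of all probe sets, and for 6 with it, against 21.2%. Over all probe sets 0.0487% were called higher and 0.0973% lower without the block, 0.495% and 0.795% with it, and 1.4% in either direction without replicate 3, where the block left 0%. The median difference of the 17 genes was -0.005 and that of all tested probe sets 0.02. The comparisons share arrays, since those with DMIOA enter 2 of them and likewise those with retinoic acid and the controls.

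**Figure D4:**
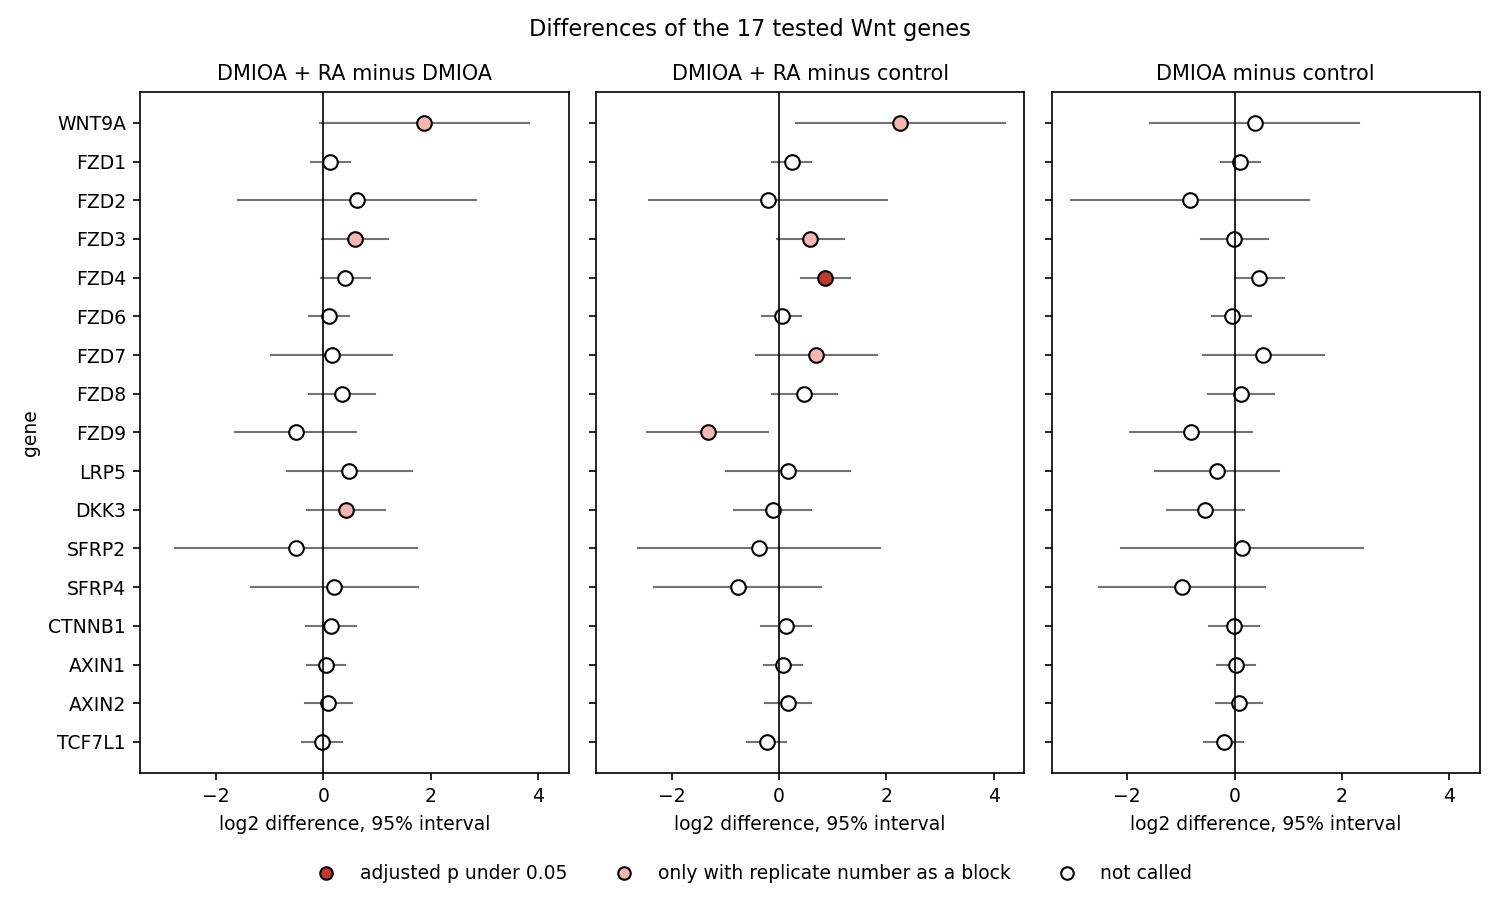
Log2 difference (horizontal axis) with its 95% interval from the fit without a block, for the 17 tested Wnt genes (vertical axis) in 3 comparisons. The dark red point, FZD4 in DMIOA plus retinoic acid against control, is the 1 call without a block, pale red points were called only with the replicate number as a block, and open points were called in neither fit.

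A part of the variation of the Wnt genes went with the replicate number. WNT9A and FZD2 stood at least 1 log2 unit higher in replicate 3 than in both other replicates in all 3 groups, and 0 of the 17 genes stood as far below. Over all tested probe sets 1.85% were that far above and 1.37% that far below. Replicate 3 of WNT9A was 1.39, 2.39 and 2.10 above the mean of replicates 1 and 2 with DMIOA plus retinoic acid, with DMIOA and in control. Replicate 3 is also where the leukocyte markers stood high, with a summed level of 12.05, 12.61 and 13.35 in the same order of groups. The part of those cells in the levels of WNT9A and FZD2 was not tested. In replicates 1 and 2 the summed level of the 12 leukocyte markers was 7.19 and 7.23 with DMIOA plus retinoic acid, 6.72 and 6.95 with DMIOA and 6.68 and 7.24 in control. CTSS was at 5 or more on 5 of these 6 arrays and PTPRC on 1, and CD74 had 4.94 and 5.02 with DMIOA plus retinoic acid, 3.57 and 3.93 with DMIOA and 3.77 and 4.04 in control. WNT9A was 2.49 and 1.94 higher with DMIOA plus retinoic acid than with DMIOA, and 2.32 and 2.68 higher than in control, in replicates 1 and 2. Replicate 3 was the highest array of its group in all 3 groups for 6 of the 17 genes, WNT9A, FZD2, FZD3, FZD6, CTNNB1 and SFRP4, and the lowest for 5, FZD7, FZD8, FZD9, LRP5 and DKK3. Over all tested probe sets it was the highest for 19.8% and the lowest for 26.2%.

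**Figure D5:**
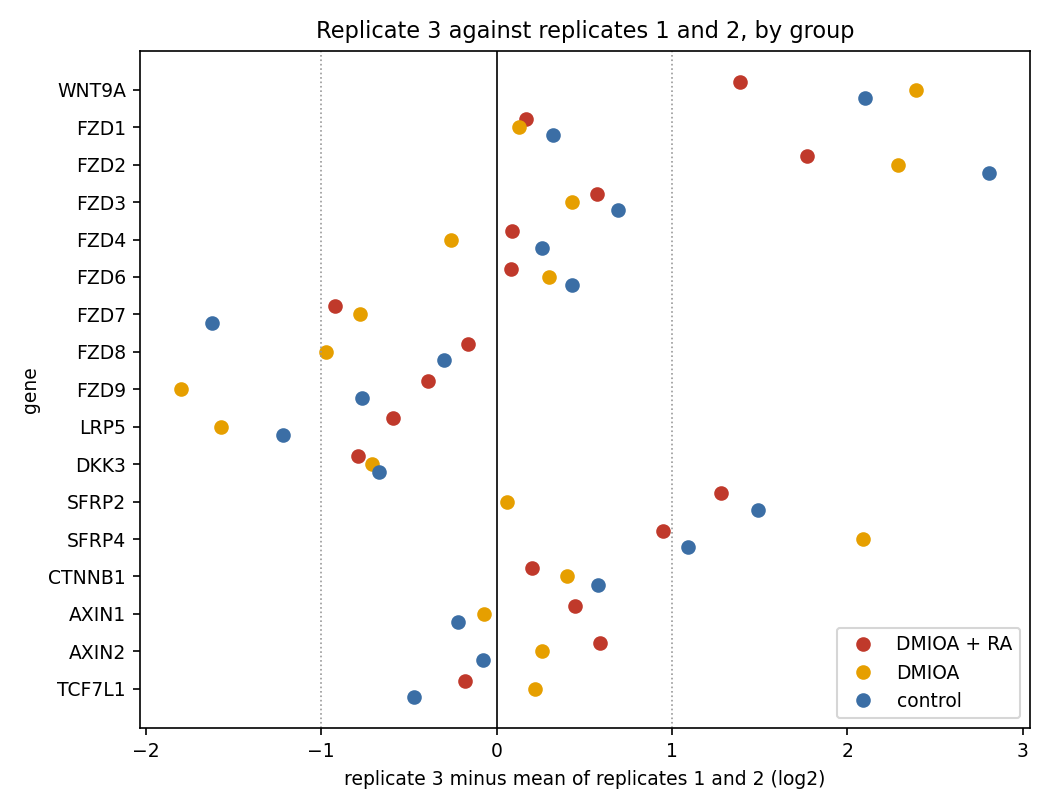
Replicate 3 minus the mean of replicates 1 and 2 (horizontal axis, log2 units) for the 17 tested Wnt genes (vertical axis), with DMIOA plus retinoic acid in red, DMIOA in orange, control in blue and dotted lines at 1 and -1. All 3 points lie right of 1 for WNT9A and FZD2 and left of 0 for FZD7, FZD8, FZD9, LRP5 and DKK3.

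Other genes of the pathway, from a list of 70 further ligand-processing, receptor, destruction-complex and polarity genes, were read beside these. On the array were 59 of the 70, and 32 were tested. With DMIOA plus retinoic acid against DMIOA, 2 of the 32 were called without a block, where 2.12% of all probe sets were called higher and 1.77% lower. FRZB, a secreted frizzled-related Wnt antagonist, rose to 11.12, 11.29 and 10.82 with retinoic acid, against 10.40, 9.50 and 9.87 with DMIOA (difference 1.16; adjusted p = 0.0360, blocked 0.0229). PRICKLE1, a planar polarity gene, fell to 4.73, 4.58 and 5.70 with retinoic acid, against 6.24, 6.54 and 6.86 with DMIOA (at least 2.49-fold; adjusted p = 0.0292, blocked 0.0111). Neither gene's groups overlapped. Both calls were lost on leaving out control replicate 1 or 2, DMIOA replicate 2 or 3 or retinoic acid replicate 1 or 2 (highest adjusted p = 0.155 for FRZB and 0.131 for PRICKLE1). The block added BCL9, CSNK1E, NLK and PTK7, all higher, which made 6 of 32, where 5.56% of all probe sets were higher and 5.27% lower. Leaving out each array in turn gave 1 to 5 blocked calls, with BCL9 in all 9 of these fits, NLK in 1 and PTK7 in 0. The same fits called 371 to 1560 of the 12329 probe sets.

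With DMIOA plus retinoic acid against control, 5 of the 32 were called without a block, 3 higher and 2 lower. Over all tested probe sets, 6.74% were called higher and 6.42% lower in that fit. NLK, a kinase that acts on TCF and LEF factors, had 9.64, 9.63 and 9.09 with DMIOA plus retinoic acid and 8.67, 8.71 and 8.69 in control (adjusted p = 0.0211). BCL9, a coactivator that binds beta-catenin, had 10.84, 10.84 and 9.91 with DMIOA plus retinoic acid and 9.47, 9.55 and 8.76 in control (adjusted p = 0.0369). PTK7, a co-receptor of the polarity branch, had 10.34, 10.34 and 10.42 with DMIOA plus retinoic acid and 9.85, 9.79 and 9.80 in control (adjusted p = 0.0272). For NLK, BCL9 and PTK7 every retinoic acid array lay above every control array. CTNNA1, the alpha-catenin gene, was 0.42 lower (adjusted p = 0.0478), and PRICKLE1 was at least 1.80-fold lower (adjusted p = 0.0499). Leaving out control replicate 1 or 2 or retinoic acid replicate 1 or 2 ended the call of each of these 5 genes (highest adjusted p between 0.0891 for NLK and 0.167 for PRICKLE1). With retinoic acid replicates 1 and 2 averaged, 0 of the 32 were called in any comparison. That fit called 546 of the 12329 probe sets against control, 153 against DMIOA and 0 for DMIOA against control. The block made 8 of 32, adding FRZB and CSNK1E higher and CTBP1 lower, where 15.8% of all probe sets were higher and 13% lower. Leaving out each array in turn gave 1 to 10, with BCL9 in all 9 fits, which called 1343 to 3898 of the 12329 probe sets. With DMIOA against control, limma called 0 of 32 with or without the block, and unadjusted p-values under 0.05 numbered 1 without it and 3 with it. Of all probe sets, 11.6% had such a p-value without the block and 21.2% with it. The smallest p-values were those of CTNNA1 (difference -0.42; adjusted p = 0.228) and NOTUM (-0.91; adjusted p = 0.465). The median difference of the 32 genes was -0.004 for DMIOA plus retinoic acid against DMIOA, -0.08 for DMIOA plus retinoic acid against control and 0.01 for DMIOA against control.

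Genes known in other systems as Wnt targets moved in both directions with retinoic acid, and many of them have other regulators. Of 44 symbols listed, 34 were on the array and 23 were tested. Some genes were listed under both an older and a newer symbol, such as CYR61 and CCN1, so not every absent symbol is an unmeasured gene. Of the 23, 1 was called higher and 2 lower with DMIOA plus retinoic acid against DMIOA, and 1 higher and 3 lower against control. Over all tested probe sets, 2.12% were called higher and 1.77% lower against DMIOA, and 6.74% and 6.42% against control. Among the listed genes 5, such as NKD1 and NOTUM, also stand on the list of other pathway genes. CD44, a hyaluronan receptor gene, had 4.45, 4.54 and 4.98 with DMIOA plus retinoic acid, 7.85, 7.58 and 8.13 with DMIOA and 8.41, 8.64 and 8.92 in control. It was at least 7.24-fold lower with DMIOA plus retinoic acid than with DMIOA (adjusted p = 0.00024) and at least 12.6-fold lower than in control (adjusted p = 7.09e-05). In the fits with and without the block, CD44 was the 1 target gene called with DMIOA against control, and only with the block (difference -0.81, limma adjusted p = 0.219, blocked 0.0437). Of all probe sets, 0.495% were called higher and 0.795% lower in that blocked fit. That call of CD44 held in 1 of the 9 blocked fits with an array left out, which called 0 to 398 of the 12329 probe sets.

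SNAI2, a repressor known in epithelial-mesenchymal transition, had 12.06, 12.05 and 11.62 with DMIOA plus retinoic acid, 10.20, 10.53 and 11.19 with DMIOA and 10.20, 9.90 and 9.71 in control. SNAI2 rose against DMIOA (1.27; adjusted p = 0.0431) and against control (1.98; adjusted p = 0.00402). CCN3, a matricellular protein gene, had 10.04, 10.06 and 10.34 with DMIOA plus retinoic acid, 12.46, 13.43 and 11.93 with DMIOA and 12.27, 12.40 and 11.63 in control. CCN3 fell against DMIOA (-2.46; adjusted p = 0.0119) and against control (-1.96; adjusted p = 0.0148). These 3 made up the calls against DMIOA, and CYR61, of the same matricellular family as CCN3, joined them against control (-0.83; adjusted p = 0.0492). CD44 in both retinoic acid comparisons and SNAI2 against control kept their calls whichever array was left out, and with retinoic acid replicates 1 and 2 averaged as 1 sample. SNAI2 against DMIOA and CCN3 and CYR61 did not, losing theirs without retinoic acid replicate 1 or 2, and some also without other arrays (highest adjusted p = 0.176 for SNAI2). CCN3 against DMIOA kept its call when each control or DMIOA array was left out in turn. With the block 5 of 23 were called against DMIOA, with MSX1 and VEGFA added as higher (3 to 6 with each array left out in turn). Against control 8 of 23 were called with the block, adding MSX1 and VEGFA as higher and TWIST1 and MMP2 as lower (3 to 14 with each array left out in turn). Called in all 9 of these blocked fits were CCN3, CD44 and MSX1 against DMIOA, and CCN3, CD44 and SNAI2 against control. Of all probe sets, the block called 5.56% higher and 5.27% lower against DMIOA, and 15.8% and 13% against control. With each array left out in turn, it called 371 to 1560 of the 12329 probe sets against DMIOA and 1343 to 3898 against control. The median difference of the 23 genes was -0.29 for DMIOA plus retinoic acid against DMIOA, -0.53 for DMIOA plus retinoic acid against control and -0.12 for DMIOA against control.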

How the data were processed

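RNA of 9 samples of laying hen preadipocytes was measured on 1-colour arrays. The labels' protocols name TriZol for RNA extraction and a 3' in vitro transcription kit for biotin labelling. The authors deposited 1 log2 value per probe set and array, made with GCRMA per the submitters' processing notes, which name no version or settings. GCRMA corrects background from the probe sequence and brings the arrays to a common distribution.

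Of 37693 chicken probe sets, the 12329 that reached 5 (log2) on 3 or more arrays were tested; 10243 of these had 1 symbol in the platform annotation, and between 30.9% and 31.3% of chicken probe sets reached 5 on each array. All 43 Wnt gene IDs were found in the RefSeq gene table. The annotation ties no genome build to the probe sets, so no coordinates are given. Group means were fitted to the 9 arrays together with lmFit and eBayes (limma 3.58.1, R 4.3.3). Benjamini-Hochberg adjustment covered every tested probe set, and calls are adjusted p-values under 0.05. "At least" marks a fold with 5 in place of lower values. The number of arrays limits the precision. The fit was tested on simulated data.

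In each of the 9 same-numbered pairs the arrays deviated together from their groups, with r between 0.375 and 0.857. Between replicates 1 and 2, same-numbered pairs had 0.375 to 0.730 and crossed pairs nearly as much, 0.321 to 0.668. Where replicate 3 stands apart from its group, replicates 1 and 2 deviate alike whether or not they are paired. These values therefore cannot show that replicates 1 and 2 are paired by number, and the blocked fit takes the numbers as given. Blocked values stand beside the results they change. Retinoic acid replicates 1 and 2 differed by a median of 0.0672, against 0.292 with DMIOA and 0.117 in control, and were averaged in 1 alternative chosen after seeing the data. Sample titles carry a closing "(2)" in the control and DMIOA groups only; its meaning is not given in the labels, and a difference it might mark cannot be told apart from retinoic acid. The members and gene lists were chosen with earlier results of these data known. Values per array are given for Wnt genes called with or without the block, standing at least 1 apart in replicate 3, or differing by at least 1 in a comparison, and for CTNNB1, AXIN2 and LEF1. Those of LRP5, SFRP2 and SFRP4 fall outside this rule and were added after they had been seen. Other lists name called genes, or the 2 with the smallest p. Other alternatives were no filter or one at 6, median centring, cyclic loess, an intensity trend with robust prior, array weights, 2 groups only, a gene's next probe set, and leaving out each array or replicate 3. No promoter was examined.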

Additional observations from a re-analysis of the deposited data

How the results depend on the processing

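Among the 17 tested Wnt genes, the count of calls with DMIOA plus retinoic acid against control was 1, and 5 with the replicate block, 11 with array weights, 2 with only the 2 groups fitted, 0 with retinoic acid replicates 1 and 2 averaged, and 0 to 6 with arrays left out. With DMIOA plus retinoic acid against DMIOA it was 0, and 3 with the replicate block and 0 to 3 with arrays left out. With DMIOA against control it was 0, and 0 to 2 with arrays left out. Over all probe sets the counts in the same order were 1623, 479 and 18; with the replicate block 3546, 1336 and 159; with array weights 8317, 1232 and 269; with the 2 replicates averaged 546, 153 and 0; and with arrays left out 546 to 3898, 146 to 1560 and 0 to 398. With only the 2 groups fitted, the counts in that order were 1666, 216 and 0, and an intensity trend with a robust prior gave 11 for DMIOA against control. For other pathway genes, 5 and 2 calls in the retinoic acid comparisons became 8 and 6 with the replicate block, and 8 and 4 without replicate 3. For target genes, 4, 3 and 0 calls became 8, 5 and 1 with the replicate block and 11, 6 and 0 without replicate 3. Over all 12329 probe sets, the counts without replicate 3 in that order were 3620, 1517 and 172. The 2 genes that stood 1 unit higher in replicate 3 became 0 at 2 units. AXIN1 with DMIOA plus retinoic acid against control changed sign with array weights, -0.149 (adjusted p = 0.0489) in place of 0.083. The cause of these changes was not tested. Of the values of single Wnt genes under the alternatives, 1396 stayed on the same side of the threshold and 73 newly passed it. A further 9 lost it, all of FZD4 against control, and 1, that of AXIN1, changed sign with a call under the alternative. The 1396 include changes of sign where neither fit gave a call. AXIN2 with DMIOA plus retinoic acid against control, for example, went from 0.173 to -0.0523 without replicate 3. Averaging retinoic acid replicates 1 and 2 leaves 8 samples, which were fitted without a block. Promoter motifs were not searched, as no promoter was used here. Genes near a value of 5 have only a bound on the dim side, and 3 arrays a group limit what could be called.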
